A study of Mus musculus with 8 samples.

Results

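Mesoderm progenitors made from the mouse embryonic stem cell (mESC) line R1 were compared between day 3 and day 4 of differentiation. The labels give 1 RNA-seq library for each day, so 2 of the 8 libraries in the series make up the comparison, and they were chosen by their titles. According to the methods of the study, embryoid bodies (floating aggregates of differentiating mESCs) were dissociated on day 2 and re-aggregated in a medium with BMP4, Activin A and Wnt3a. The day 3 cells were collected before, and the day 4 cells a day after, addition of IWP-2 to the dish. IWP-2 blocks Porcupine, the enzyme that attaches the lipid without which cells cannot secrete Wnt proteins. The day 4 library therefore differed from the day 3 library in age and in the inhibitor together, and their parts cannot be told apart. The labels name no sort of these cells and no modification of the line. As a reference for levels, 5 libraries of R1 mESCs were set beside them. These cells had been kept in serum-containing medium with the GSK3 inhibitor CHIR99021 and the MEK inhibitor PD0325901 (2i, day 5), with a JAK inhibitor added to 2i (2iJ, day 5), or with BMP4 and an ALK5 inhibitor added to 2iJ (2iJ+B-A, days 2, 5 and 11). The sixth mESC library, of cells sorted on day 2 in 2iJ+B-A for a Cdx2-GFP reporter, came from another line. It entered the scaling between libraries, and its levels appear only in the plot of the 8 libraries.

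Gastrulation begins when Nodal, Wnt and BMP signals turn pluripotent epiblast cells into the cells of the primitive streak. Streak cells express Brachyury (T) and Eomes, lose E-cadherin and leave the epithelium as mesoderm. The earliest mesoderm expresses Mesp1, and its descendants form heart, vessels and blood, whereas cells that stay longer under Wnt and FGF signals express Tbx6 and Msgn1 and form the paraxial mesoderm of the trunk. Wnt ligands act through Frizzled and Lrp receptors to stabilise beta-catenin, which joins the DNA-binding proteins TCF and LEF at target genes such as Axin2. In later cardiac specification Wnt antagonists are known to favour the heart lineage.

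The libraries were of similar size, with 31451806 gene counts on day 3 and 30957386 on day 4. Unmapped read pairs made up 3.33% and 2.48%, and mitochondrial genes took 1.21% and 1.32% of the counts. Levels are given in CPM, the usual unit of gene counts relative to the library total, scaled between libraries with TMM (trimmed mean of M values). The level that 3 counts give, taken as the floor, was 0.0935 CPM on day 3 and 0.0968 CPM on day 4. A gene was counted if its mean over both libraries was at least 1 CPM, which held for 12892 genes. A difference is given as the ratio of the levels, with a 95% interval that covers counting error only (Clopper-Pearson), or as the log2 ratio of day 4 over day 3. With 1 library a day there is no replicate check and no p-value, so each ratio compares these libraries and not the conditions. Genes that passed the 1 CPM minimum through the library in which they were high had to differ, and counts over the genes of a list are descriptions.

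T and Mesp1, markers of primitive streak and nascent mesoderm, and Pou5f1, a marker of pluripotent cells, were high on day 3 and far lower on day 4. Brachyury (T, ENSMUSG00000062327, NCBIM37 chromosome 17, 8627288 to 8635361), the T-box factor of the primitive streak, had 537 CPM on day 3 against 6.29 CPM on day 4, an 85.3-fold lower level on day 4 (95% counting interval 74.1 to 98.8). Mesp1 (ENSMUSG00000030544, chromosome 7, 86937127 to 86938674), the factor of nascent mesoderm, went from 178 to 6.36 CPM and was 28-fold lower (24.3 to 32.4). Pou5f1 (ENSMUSG00000024406, chromosome 17, 35642982 to 35647721), the POU factor Oct4 of pluripotent cells, went from 688 to 35.3 CPM and was 19.5-fold lower (18.3 to 20.7). Day 3 thus held T and Mesp1 together with a Pou5f1 level below the 862 to 1079.6 CPM of the 5 R1 mESC libraries. T had 0.224 to 1.40 CPM and Mesp1 at most 0.275 CPM in those mESCs, so both remained higher on day 4 than in any of them. In bulk RNA, fewer cells of a type and less RNA per cell cannot be told apart.

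**Figure D1:**
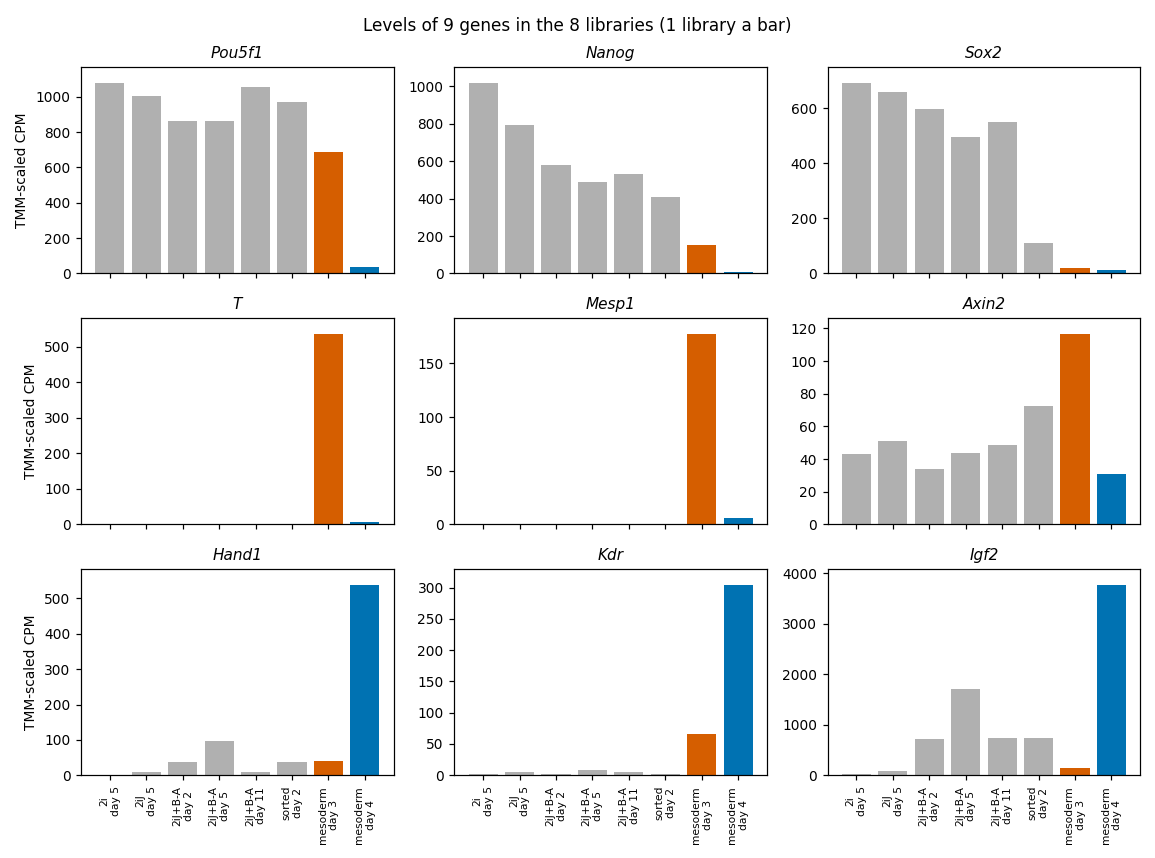
Levels (TMM-scaled CPM, linear axes from 0) of 9 genes in the 8 libraries, with 1 bar a library, grey for mESCs, orange for day 3 and blue for day 4 mesoderm progenitors. T and Mesp1 stood at 537 and 178 CPM in the day 3 bar alone, while Hand1, Kdr and Igf2 were highest in the day 4 bar, at 539, 305 and 3779 CPM.

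Of the 12892 genes counted, 1175 (9.11%) were at least 2-fold higher on day 4 and 1138 (8.83%) at least 2-fold lower. The median log2 ratio was 0.04, with 10th and 90th percentiles of -0.90 and 0.93. At least 4-fold apart were 426 genes in the direction of day 4 and 482 in the direction of day 3, and at least 16-fold apart were 136 and 101. For scale, 340 of 13271 genes (2.56%) were 2-fold apart between 2iJ and 2i, 1263 of 13508 (9.35%) between days 5 and 2 of 2iJ+B-A, and 881 of 13486 (6.53%) between its days 11 and 5. The mesoderm libraries, a day apart, thus had more genes 2-fold apart (2313 in all, 17.9%) than each of these pairs, although medium and culture also differ between the sets. The list members below are read against 9.11% and 8.83%. Some genes are on several lists (684 entries for 605 genes), so the counts of different lists partly repeat each other.

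**Figure D2:**
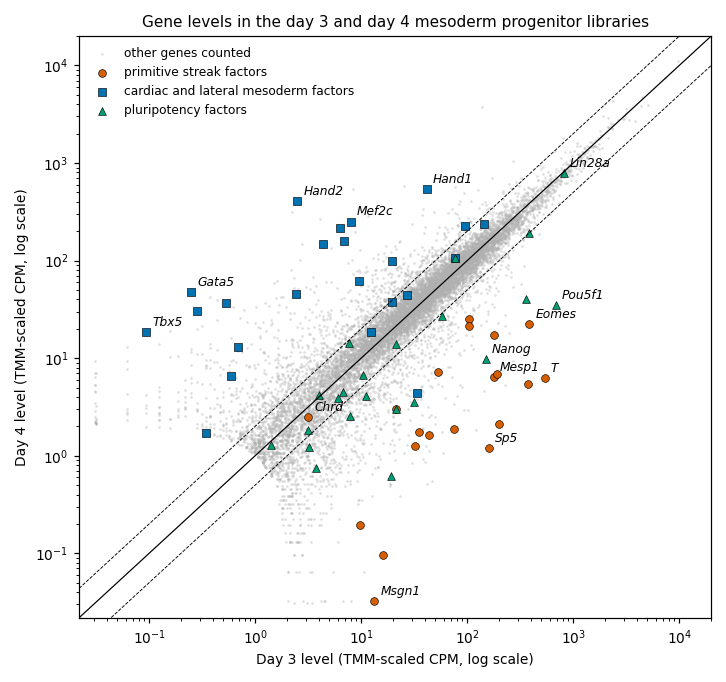
Level of each of the 12892 genes counted on day 3 (x axis) against day 4 (y axis), both in TMM-scaled CPM on log scales, with a solid line at equal levels, dashed lines at 2-fold and genes with no count drawn at the level of 1 count. Primitive streak factors (orange circles) lay below the lower dashed line except Chrd, and 17 of the 23 cardiac and lateral mesoderm factors (blue squares) lay above the upper one.

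Primitive streak factors were lower on day 4 almost without exception. Of 20 counted members of 23 listed, 19 were at least 2-fold lower and 0 higher, and the median log2 ratio was -4.74 against 0.04 over all genes. Their summed level went from 2711 to 133.8 CPM. The T-box factor Eomes, which acts with T in the streak, had 385 CPM on day 3 against 22.2 CPM on day 4. The homeobox factor Mixl1 had 201 and 2.10 CPM and was 96-fold lower (75.3 to 125). Sp5, a zinc-finger factor induced by Wnt, had 159 and 1.19 CPM (133-fold, 96.5 to 189). Msgn1, a bHLH factor of presomitic mesoderm, had 425 counts on day 3 and 1 count on day 4, and this lone count leaves its 411-fold ratio with an interval that starts at 73.3. The homeobox genes Lhx1 (177 to 17.4 CPM), Evx1 (189.7 to 6.90 CPM) and Gsc (9.76 to 0.194 CPM) were lower as well. So was Fst, the secreted antagonist of Activin, at 371 and 5.39 CPM. Chrd, a BMP antagonist of the node and the only counted member within 2-fold, had 3.15 and 2.48 CPM. The members not counted were Foxa2, with 55 counts on day 3 and 2 on day 4, Cer1, with 8 and 10, and Noto, with none in either library.

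Promoters of streak genes are shown because several of these genes are known to be reached by beta-catenin through TCF and LEF proteins. Each sequence runs from 250 bases before to 50 bases after the start that RefSeq gives the gene, was taken from a RefSeq table of build GRCm38.p6 and was placed in NCBIM37, the build of the files, by exact match. Capitals mark the TCF/LEF motif CTTTGAT, searched on both strands, so that it reads ATCAAAG where it lies on the other strand. Among the 19 streak factors that were lower, 16 had a promoter in the table, with 16 sequences in all, and 3 held the motif. Over all promoters 1225 of 32851 (3.729%) held it. A match of letters describes the sequence and says nothing of binding.
Sp5 promoter (NCBIM37 chr2:70312730-70313029, plus strand): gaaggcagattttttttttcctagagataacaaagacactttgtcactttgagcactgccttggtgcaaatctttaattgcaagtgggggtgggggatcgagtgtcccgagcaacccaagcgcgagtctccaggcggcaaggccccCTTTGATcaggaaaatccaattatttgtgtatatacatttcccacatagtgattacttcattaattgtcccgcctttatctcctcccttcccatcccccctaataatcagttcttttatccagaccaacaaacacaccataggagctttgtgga
Msgn1 promoter (NCBIM37 chr12:11215705-11216004, minus strand): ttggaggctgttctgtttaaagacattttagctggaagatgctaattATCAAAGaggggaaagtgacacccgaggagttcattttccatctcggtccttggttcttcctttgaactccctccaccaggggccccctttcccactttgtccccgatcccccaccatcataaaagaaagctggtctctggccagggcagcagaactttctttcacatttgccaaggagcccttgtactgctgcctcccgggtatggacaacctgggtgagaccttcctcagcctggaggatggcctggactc
Mesp1 promoter (NCBIM37 chr7:86938427-86938726, minus strand): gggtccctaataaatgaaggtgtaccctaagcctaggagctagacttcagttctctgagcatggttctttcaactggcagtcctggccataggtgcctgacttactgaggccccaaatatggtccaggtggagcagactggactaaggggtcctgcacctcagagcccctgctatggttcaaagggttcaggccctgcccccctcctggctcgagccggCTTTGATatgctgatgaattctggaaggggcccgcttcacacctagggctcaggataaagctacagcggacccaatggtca
The motif began 104 bases before the start in Sp5, 203 in Msgn1 and 31 in Mesp1. These 3 genes were 133-fold, 411-fold and 28-fold lower on day 4. T, Eomes and Lhx1, whose windows do not hold these letters, were also lower, by other ratios. Other forms of the motif were not searched, and a role of the motif was not tested.

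Genes of the pluripotent epiblast were lower on day 4, but the pluripotency list moved in parts. Of 22 counted pluripotency factors, 11 were at least 2-fold lower and 0 higher (median log2 ratio -1.04). Beside Pou5f1, the homeobox factor Nanog had 149.6 CPM on day 3 against 9.71 CPM on day 4 (15.4-fold, 13.7 to 17.4). Tdgf1, the Nodal co-receptor Cripto, went from 361 to 40.2 CPM, and Klf5 from 31.2 to 3.58 CPM. The lowest log2 ratio on the list was that of the homeobox factor Gbx2, at 19.1 and 0.613 CPM, where a log2 ratio of -4.93 became -4.30 when both strands were counted together. Sox2, a core pluripotency factor, and factors of naive mESCs were already far below mESC levels on day 3. Sox2 had 21.2 and 13.9 CPM against 495 to 693 CPM in the R1 mESCs, Esrrb 6.08 and 3.90 against 239 to 438, and Zfp42 (Rex1) 10.4 and 6.68 against 468 to 864. Lin28a, an RNA-binding protein that restrains let-7, differed by only 1.02-fold, at 816 and 798 CPM, above its mESC range of 234 to 625 CPM. Klf4 had 7.70 and 14.2 CPM, within 2-fold. Among 14 counted epiblast and formative genes, 11 were at least 2-fold lower and 0 higher (median -2.59). They included Fgf5 (38.1 to 0.936 CPM), a growth factor of the post-implantation epiblast, and the zinc-finger genes Zic2 (228 to 27.6 CPM) and Zic5 (68.5 to 8.13 CPM). The de novo DNA methyltransferases Dnmt3a and Dnmt3b, also on that list, were within 2-fold, Dnmt3b at 375 and 456 CPM.

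Paraxial and segmentation genes were mostly lower on day 4. Of 12 counted members of 19 listed, 8 were at least 2-fold lower and 2 higher (median -2.73). Tbx6, the T-box factor of presomitic mesoderm, had 32.1 and 1.26 CPM. Mesp2, the partner of Mesp1 in somite formation, had 35 and 1.74 CPM. The Notch ligands Dll1 and Dll3 of the segmentation clock went from 72.9 to 1.94 and from 72.2 to 6.48 CPM. The exceptions were Foxc1, a forkhead factor of mesoderm, at 8.08 and 21.6 CPM, and Aldh1a2, the enzyme that makes retinoic acid in mesoderm, at 2.28 and 13.2 CPM. Factors of formed somites had few counts, with 11 counts on day 3 and 7 on day 4 for Meox1, 0 in both for Uncx and 7 and 29 for Pax3.

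Cardiac and lateral mesoderm factors were higher on day 4. Of 23 counted members of 25 listed, 17 were at least 2-fold higher and 1 was lower, with a median log2 ratio of 3.71, and their summed level went from 509.97 to 2754 CPM. Among the bHLH factors of the heart fields, Hand1 (chromosome 11, 57642207 to 57646320) had 41.3 CPM on day 3 against 539 CPM on day 4 (13.1-fold, 12.3 to 13.8), and Hand2 (chromosome 8, 59799780 to 59803314) had 2.49 and 406 CPM (163-fold, 131 to 205). The GATA factors differed in their starting level. Gata4 was present on day 3 at 94.8 CPM and had 226 CPM on day 4, Gata6 had 19.5 and 98.5 CPM, and Gata5 had 8 counts on day 3 and 1462 on day 4 (0.249 and 47.2 CPM). For the T-box factor Tbx5 of the heart field that forms the left ventricle and atria, 3 counts on day 3 stood against 574 on day 4, a ratio of 198 (67.4 to 963). Tbx20 had 4.37 and 147 CPM and Tbx2 0.530 and 37 CPM. Mef2c, a MADS-box factor of muscle genes, had 8.01 and 252 CPM, its partner Myocd 0.281 and 30.6 CPM, and Smarcd3, a subunit of the cardiac chromatin remodelling complex, 6.27 and 214 CPM. Nkx2-5, the homeobox factor of committed heart precursors, had 0.686 CPM on day 3 against 13 CPM on day 4. Isl1, a LIM factor of the later heart field, had 9.64 and 61.6 CPM. Pdgfra, a receptor on early cardiac mesoderm, was high on both days at 143 and 239 CPM and stayed within 2-fold. In the R1 mESCs, Hand2 had at most 8.26 CPM, Tbx20 8.72 CPM and Mef2c 4.47 CPM.

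Genes of the contractile apparatus split in both directions. Of 16 counted members of 22 listed, 8 were at least 2-fold higher and 5 lower on day 4 (median 1.83). The sarcomere genes Tnnt2 (cardiac troponin T, 0.281 to 19.8 CPM) and Tnni1 (slow troponin I, 0.437 to 39.1 CPM) were higher. So were Myl7 (atrial light chain, 2.12 to 25.1 CPM), Myl4 (2.34 to 29.3 CPM), Myh7 (beta myosin heavy chain, 0.374 to 12.8 CPM) and Ttn (titin, 0.998 to 23 CPM). Myh7 shares long stretches with Myh6, so some of their reads may be split or left out. The day 4 level of Ttn was modest beside mESCs, since Ttn had 22.7 to 96.9 CPM in the R1 mESC libraries. Lower on day 4 were Tagln (transgelin) at 121 and 1.84 CPM, Cnn1 (calponin) at 26.3 and 4.32 CPM and Acta2 (smooth muscle actin) at 8.67 and 1.52 CPM, which are genes of smooth muscle. With both strands counted together the log2 ratio of Tagln went from -6.03 to -5.39. Cardiac actin Actc1 (20.5 to 1.13 CPM) and cardiac troponin I Tnni3 (7.98 to 1.61 CPM) were lower with them. Among genes of working cardiomyocytes, Tnnc1, Nppa and Pln had 0 counts in both libraries, which allows a level of up to 0.0935 CPM on day 3 and 0.0968 CPM on day 4. Myl2 had 18 and 16 counts.

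The promoters of Actc1 and Myl7 are printed because both carry a CArG box, the site known for serum response factor, close to the start while the genes differed in opposite directions. The CArG box, read as capitals here, lay 47 bases before the start of Actc1 and 61 before that of Myl7, and 535 of 32851 promoters (1.629%) held such a box.
Actc1 promoter (NCBIM37 chr2:113878562-113878861, minus strand): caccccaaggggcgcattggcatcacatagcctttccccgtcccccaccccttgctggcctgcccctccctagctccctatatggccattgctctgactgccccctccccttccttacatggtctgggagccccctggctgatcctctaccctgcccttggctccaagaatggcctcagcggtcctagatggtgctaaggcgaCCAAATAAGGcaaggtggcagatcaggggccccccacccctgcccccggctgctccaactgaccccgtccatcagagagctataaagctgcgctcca
Myl7 promoter (NCBIM37 chr11:5798736-5799035, minus strand): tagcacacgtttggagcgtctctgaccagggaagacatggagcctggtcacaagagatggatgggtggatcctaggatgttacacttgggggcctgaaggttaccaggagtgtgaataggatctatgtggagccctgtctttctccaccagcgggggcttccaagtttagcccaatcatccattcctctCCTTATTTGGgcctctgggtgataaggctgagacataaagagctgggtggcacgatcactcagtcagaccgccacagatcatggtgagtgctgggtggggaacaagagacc
Of the promoters of contractile genes, 1 of 4 among those lower on day 4 and 1 of 11 among those higher held it.

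Endothelial and blood specification factors were higher on day 4, while each of the 7 globin genes listed had less than 1 CPM. Of 20 counted members of 30 listed, 16 were at least 2-fold higher and 0 lower, with a median of 2.21. Many of them had low levels, and 8 were higher with a minimum mean of 5 CPM. Kdr (Flk1), the VEGF receptor of cardiovascular progenitors, had 66.5 CPM on day 3 against 305 CPM on day 4 (4.59-fold, 4.38 to 4.81). The bHLH factor Tal1, required for blood, had 12 counts on day 3 and 1320 on day 4 (0.374 and 42.6 CPM). Etv2, the ETS factor that begins the endothelial and blood programme, had 4.49 and 21.1 CPM. The list member Lmo2 had 4.68 and 17.1 CPM and the ETS gene Fli1 0.873 and 8.07 CPM. Erg, another ETS gene, had no count on day 3 and 198 on day 4, so it was at least 68.3-fold higher against the floor of 3 counts, and the median of the list is the same with Erg at that bound. Endothelial surface genes were higher too, Cdh5 (VE-cadherin) at 1.56 and 8.16 CPM and Pecam1 at 1.25 and 36.7 CPM. Runx1 (2.71 and 1.90 CPM), Gata2 (7.86 and 12.4 CPM), Flt1 (8.58 and 6.58 CPM) and Sox17 (2.03 and 2.10 CPM) were within 2-fold. Gata1, the erythroid GATA factor, had 1 and 23 counts and did not pass the minimum. Of 15 listed globin and erythroid genes 3 were counted, 2 of them higher, and with no minimum 7 were higher and 1 lower. Embryonic globin Hbb-bh1 had 0 counts on day 3 and 20 on day 4 (0.645 CPM), and Hbb-y had none in either library. The adult globin pairs are near-identical copies whose shared reads are not counted.

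Most Wnt ligands were lower on day 4. Of 13 counted members of 19 listed, 10 were at least 2-fold lower on day 4 and 1 was higher (median -2.07). Wnt3, the ligand needed for streak formation, had 105 CPM on day 3 against 25 CPM on day 4 (4.20-fold, 3.88 to 4.54). Wnt3a, which is expressed in the streak and was also supplied to the culture as protein, had 512 counts and 3 counts (16 and 0.0968 CPM). Wnt8a (46.8 to 0.548 CPM), Wnt2b (41.2 to 1.26 CPM), Wnt5b (42.6 to 3.13 CPM) and Wnt6 (18.7 to 0.484 CPM) were lower too. The log2 ratio of Wnt2b, -5.02, became -4.29 with both strands counted together. The ligands that did not follow were Wnt5a, known for beta-catenin-independent signalling, at 85.6 and 95.1 CPM, and Wnt2, expressed in early heart mesoderm, at 20.6 and 18.9 CPM. Wnt9b was 5.81-fold higher, at 2.62 and 15.2 CPM. The transcript of the inhibitor's target, Porcn, was low and within 2-fold at 6.17 and 4.00 CPM (1.54-fold lower, 1.23 to 1.95). Wls, the carrier that escorts Wnt proteins to the cell surface, was 2.34-fold higher at 105 and 247 CPM.

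Receptors and secreted modulators showed no common direction, while most target genes, like most ligands, were lower on day 4. Of 26 counted genes of Wnt secretion, receptors and antagonists, 6 were higher and 6 lower, with a median of 0.09. Fzd7, a main Frizzled of the streak, stayed at 199 and 209 CPM and the co-receptors Lrp5 and Lrp6 were within 2-fold. Fzd4 (1.65 to 19.5 CPM) and Fzd2 (29.2 to 72.4 CPM) were higher, while Fzd10 (14.8 to 1.00 CPM) was lower. Among secreted antagonists, Sfrp5 (0.125 to 14 CPM) and Sfrp1 (7.92 to 49.97 CPM) were higher, Frzb (130.0 to 34.9 CPM) was lower and Dkk1 was within 2-fold at 21 and 16.8 CPM. Of 21 counted beta-catenin targets, 14 were at least 2-fold lower and 1 higher (median -1.57). Axin2, the feedback gene most used as a readout of the pathway, had 117 CPM on day 3 against 30.8 CPM on day 4 (3.79-fold, 3.53 to 4.07), and its day 4 level lay just below the 33.9 to 51.1 CPM of R1 mESCs cultured with a GSK3 inhibitor. Lef1 went from 187 to 51.9 CPM, Tcf7 from 137 to 62.5 CPM and Sp8 from 93.7 to 2.94 CPM. The caudal factor Cdx1 had 256 counts on day 3 and 1 on day 4, whereas Cdx2 had 39.4 and 17.2 CPM. The cell cycle targets Ccnd1 (246 and 295 CPM) and Myc (36 and 42.4 CPM) were within 2-fold. Bambi, a decoy receptor that BMP signals also induce, was the member that was higher, at 20.2 and 60.1 CPM. The target list shares T, Tbx6, Msgn1 and Sp5 with the streak list. Other lists overlap too. Msgn1 is also on the paraxial list, Mixl1 on the Nodal/Activin list, Fgf5 on the FGF list and Tbx2 on the BMP list.

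**Figure D3:**
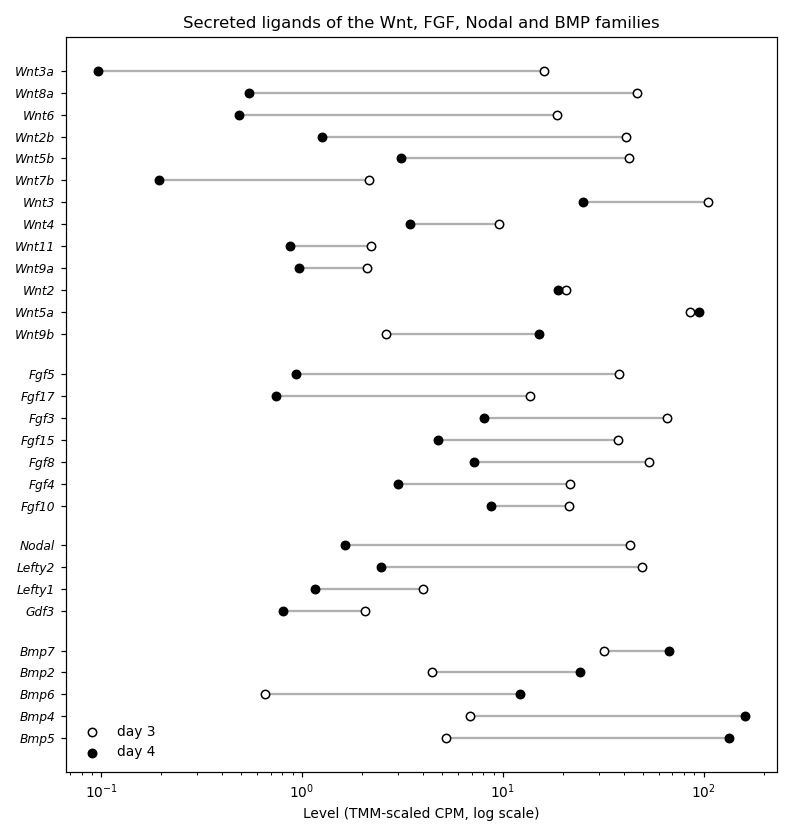
Levels (TMM-scaled CPM, log axis) of the counted Wnt, FGF, Nodal-family (with the antagonists Lefty1 and Lefty2) and BMP ligands, with open circles for day 3 and filled circles for day 4, 1 library each. All Wnt, FGF and Nodal-family genes drawn had the filled circle to the left except Wnt5a and Wnt9b, and the 5 BMP ligands had it to the right.

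Genes of the Nodal and BMP branches of the TGF-beta family differed in opposite directions. In the Nodal/Activin list 11 of 19 counted members were at least 2-fold lower on day 4 and 2 higher (median -1.78). Nodal itself had 43.2 CPM on day 3 against 1.65 CPM on day 4 (26.2-fold, 19.8 to 35.4), its feedback antagonist Lefty2 49.5 and 2.48 CPM and its target Pmepa1 20.1 and 2.10 CPM. The co-receptor genes went apart, since Tdgf1 was lower and its paralog Cfc1 (Cryptic) was 34.2-fold higher at 4.15 and 142 CPM. The transducers Smad2 (59.5 and 71.1 CPM) and Smad3 (56.8 and 65.4 CPM) and the cofactor Foxh1 (141 and 245 CPM) were within 2-fold. In the BMP list 17 of 29 counted members were higher and 1 lower (median 1.30). All 5 BMP ligands listed were higher, among them Bmp4 (6.89 to 160.5 CPM, 23.3-fold, 20.3 to 26.8) and Bmp5 (5.21 to 134 CPM). Direct targets and inhibitory Smads were higher as well. Id2 had 28.7 and 118 CPM, Id3 80.1 and 234 CPM, Smad6 16.3 and 120.2 CPM and Smad7 25.4 and 95.5 CPM. Id1 (121 and 183 CPM) and the receptor Bmpr1a (135 and 219 CPM) were within 2-fold. Among extracellular BMP modulators, Bmper (31.7 to 129.6 CPM) and Nog (1.65 to 12.6 CPM) were higher. The member that was lower was the antagonist Grem1, at 1.53 and 0.710 CPM, and its call was lost when the nearer bound of the counting interval had to reach 2-fold.

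FGF ligands were lower on day 4 while the counted receptors were within 2-fold or higher. In the FGF list 10 of 23 counted members were at least 2-fold lower and 2 higher (median -0.54). Every counted ligand was lower, among them Fgf8 (53.3 to 7.16 CPM), needed for cells to leave the streak, Fgf3 (65.7 to 8.03 CPM), Fgf15 (37.6 to 4.74 CPM) and Fgf17 (13.6 to 0.742 CPM). Fgfr1 stayed at 334 and 423 CPM, and the 2 members that were higher were receptors, Fgfr2 (9.42 to 34.5 CPM) and Fgfr3 (3.02 to 54.2 CPM). Feedback genes of the ERK pathway differed among themselves. Dusp6 (156 to 30.1 CPM) and Spry4 (41.9 to 14 CPM) were lower, but Spry2 (133 and 101 CPM) and Dusp4 (173 and 151 CPM) were within 2-fold. In the Notch list 9 of 18 counted genes were lower and 1 higher (median -0.59). Besides Dll1 and Dll3, the genes that were lower included the modulators Lfng (36.6 to 3.81 CPM) and Nrarp (42.6 to 5.97 CPM) and the receptor Notch1 (124 to 49.5 CPM). The ligand Jag2 (9.07 to 2.55 CPM), the bHLH repressors Hes1 (82.6 to 39.5 CPM) and Hes7 (2.12 to 0.452 CPM) and the modulator Dtx1 (2.74 to 1.00 CPM) completed them. The gene that was higher was Hey2, a bHLH repressor of the ventricular heart lineage, at 1.03 and 33.1 CPM (32.2-fold, 22.8 to 47).

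Most epithelial genes listed were lower on day 4, and several mesenchymal genes were higher. Of 24 counted genes of the epithelial-mesenchymal switch, 13 were at least 2-fold lower and 5 higher. E-cadherin (Cdh1) had 493 CPM on day 3, just below the 543 to 812 CPM of R1 mESCs, and 28.2 CPM on day 4 (17.5-fold, 16.3 to 18.7). Epcam went from 82.5 to 15.2 CPM, the tight-junction gene Cldn7 from 37.2 to 2.65 CPM and the epithelial splicing factor Esrp1 from 62 to 3.90 CPM. P-cadherin (Cdh3), another epithelial cadherin, was 4.84-fold higher (4.16 to 5.65), at 6.42 and 31.1 CPM. The repressors of E-cadherin went in opposite directions, since Snai1 had 103 and 21.1 CPM and Snai2 had 0.780 and 31.5 CPM. Vim, the mesenchymal filament gene, had 248 and 605 CPM. N-cadherin (Cdh2) was already at 172 CPM on day 3 and had 127 CPM on day 4, against 3.79 to 9.23 CPM in the R1 mESCs. Fibronectin (Fn1) was lower by 2.05-fold, at 2013 and 984 CPM. Among 28 counted extracellular matrix genes 14 were higher and 1 lower (median 0.94). Has2, the hyaluronan synthase of the heart's endocardial cushions, had 37.9 and 341 CPM and the link protein gene Hapln1 0.343 and 9.58 CPM. Fbn1 (fibrillin) had 17 and 142 CPM and Col4a6 2.15 and 28.9 CPM, while the main basement membrane chains Col4a1 (194 and 189 CPM) and Lamc1 (127 and 172 CPM) were within 2-fold. Col1a2 was the member that was lower, at 9.76 and 1.45 CPM.

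Most counted anterior Hox genes were higher on day 4, and most posterior ones had few counts on both days. Of 12 listed genes of groups 1 to 4, 5 were counted, 4 of them higher and 1 lower. Hoxb1 had 20.8 CPM on day 3 against 44.8 CPM on day 4, Hoxb2 3.77 and 55 CPM and Hoxb4 0.281 and 11 CPM. Hoxb3 had 0.593 and 9.32 CPM, and its log2 ratio of 3.94 became 5.35 when both strands were counted together. Of 27 genes of groups 5 to 13 only Hoxd9 was counted, with 3 and 131 counts. On day 3, 21 of the 27 had 3 counts or fewer, as did 13 on day 4, and their summed level went from 3.21 to 9.97 CPM. Retinoic acid genes were divided, with 4 of 14 counted members higher and 4 lower. Besides Aldh1a2, the binding protein Crabp1 (10.9 to 76.2 CPM) and the receptor Rarb (0.281 to 5.65 CPM), itself a known target of the hormone, were higher. Cyp26a1, the enzyme that degrades retinoic acid in the streak, went from 96.8 to 17.2 CPM and Rxrg from 16.1 to 1.35 CPM.

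Markers of other cell types that embryoid bodies can hold were mixed in level and direction. Of 18 listed definitive and node endoderm markers 10 were counted, 4 of them lower and 2 higher. Their log2 ratios ran from -5.54, that of Gsc, which is also a streak factor, to 5.52. Sox17 had 65 counts in each library and Shh 1 and 0, and the summed level of the list went from 739.2 to 355.5 CPM, most of it in the keratins Krt8 (369 and 212 CPM) and Krt18. Of 18 visceral and extraembryonic endoderm markers 7 were counted, 3 higher and 2 lower, with log2 ratios from -2.24 to 4.61, that of Sox7. Afp had 30 and 3 counts and Hnf4a 10 and 12, and the summed level went from 204.7 to 637.1 CPM, mainly through Apoe (84 to 377 CPM) and Gata4, which other cells also express. In the neural and surface ectoderm list 9 of 22 were counted, 5 lower and 2 higher, with a summed level of 323.4 and 129.8 CPM. Log2 ratios of the counted members ran from -3.72 to 5.68. Nes went from 197 to 22.8 CPM, and Six3 and Neurog2 had no count. In the trophoblast list 11 of 16 were counted, 5 lower and 3 higher. The lowest log2 ratio there, -4.12, was that of Eomes, which is also a streak factor. The members that were higher were Hand1, Tead4 (11.1 to 27.1 CPM) and Plac1 (0.437 to 24.8 CPM), while the placental hormone genes Prl3d1 and Prl2c2 had no count and Elf5 had 0 and 2. Reads shared by near-identical copies, such as those of Prl2c2, are not counted. The summed level of the trophoblast list was 1021 and 933.0 CPM. Among 11 counted germ cell genes 5 were lower and 2 higher, with a sum of 384.9 and 256.1 CPM. Prdm1 (Blimp1) was higher at 2.74 and 20.2 CPM, whereas its partners Prdm14 (3.74 and 0.742 CPM) and Tfap2c (14.3 and 4.39 CPM) were lower. The part of such cells in the other results was not tested.

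**Figure D4:**
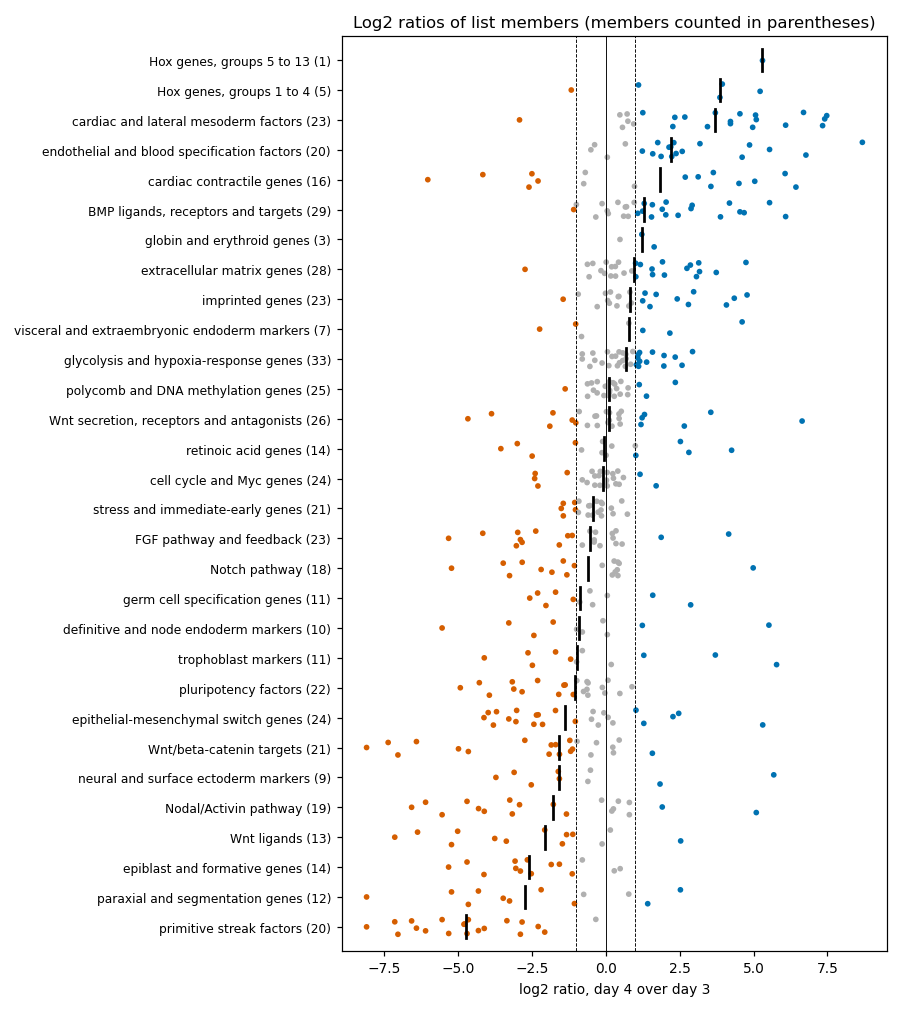
Log2 ratio of day 4 over day 3 for each counted member (points) of the 30 gene lists, ordered by their median (black bar), with dashed lines at 2-fold, blue points at least 2-fold higher and orange points at least 2-fold lower on day 4. The medians ran from -4.74 for primitive streak factors to 3.86 for the 5 counted Hox genes of groups 1 to 4 and 5.28 for Hoxd9 alone.

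Lists of general cell programmes had medians between -0.45 and 0.68, nearer to 0 than most developmental lists. Of 33 counted genes of glycolysis and the hypoxia response 13 were at least 2-fold higher and 0 lower (median 0.68). Gapdh had 1809 and 1939 CPM and Ldha 1083 and 1608 CPM, both within 2-fold. The largest ratio was that of Eno2, an isoform of the glycolytic enzyme enolase, at 3.21 and 24.6 CPM (7.67-fold, 6.24 to 9.52). Gapdh and Ldha have many pseudogene copies, so their values are uncertain. Genes known to be induced by low oxygen were among the others that were higher. Vegfa, the ligand of Kdr, had 16.3 and 82.9 CPM (5.09-fold, 4.63 to 5.60), Bnip3 13.4 and 80.4 CPM and P4ha1 22.8 and 89 CPM. Egln3, another such gene, had 39.6 and 22.8 CPM, within 2-fold. Of 24 cell cycle and Myc genes 18 were within 2-fold, among them Mki67 (375 and 566 CPM), Ccna2 (275 and 279 CPM) and Cdk1 (163 and 168 CPM). The inhibitors Cdkn1b (58.1 to 129.5 CPM) and Cdkn1c (64.1 to 209 CPM) were higher and Cdkn1a was lower (179 to 33.6 CPM). In the stress and immediate-early list 16 of 21 genes were within 2-fold, 5 lower and 0 higher, and Fos had 5.39 and 6.39 CPM. Of 25 polycomb and DNA methylation genes 21 were within 2-fold, such as Ezh2 at 268 and 276 CPM, while the dioxygenases Tet3 (20.7 to 106 CPM) and Tet2 (7.39 to 19.2 CPM) were higher.

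Imprinted genes, which are expressed from 1 parental copy, were higher in 10 of 23 counted members and lower in 1 (median 0.82). Igf2 (chromosome 7, 149836673 to 149852721), the paternally expressed growth factor, had 138 CPM on day 3 against 3779 CPM on day 4 (27.5-fold, 26.6 to 28.3). H19, its maternally expressed neighbour, had 37.8 and 297 CPM. Mest (92.6 to 494 CPM), Dlk1 (4.02 to 28 CPM) and Igf2r (116 to 276 CPM) were higher with them. Peg10 and Peg3 were abundant on both days and within 2-fold, Peg10 at 2384 and 4338 CPM and Peg3 at 1097 and 1489.9 CPM. Snrpn was the member that was lower, at 234 and 86 CPM. In the R1 mESC libraries the level of Igf2 varied widely, from 21.8 CPM in 2i to 1712 CPM on day 5 of 2iJ+B-A.

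Across all protein-coding genes with at least 10 CPM in the higher library, 15 with the largest ratio in each direction were examined. Of the 15 highest on day 4, 9 were members of the lists and 6 were not. Smyd1, a muscle methyltransferase required for heart development, had 11 counts on day 3 and 1992 on day 4 (0.343 and 64.3 CPM) and lay between 18.7 and 43.4 CPM in the R1 mESCs. Gpr124, an endothelial receptor that takes part in Wnt7 signalling, had 2.21 and 316 CPM, and Capn6 4.05 and 269.8 CPM. The tryptophan-degrading enzyme Tdo2 had 2 and 405 counts, Ptpre 6 and 713, and Fam65c 10 and 667. Of the 15 highest on day 3, 9 were members and 6 were not. Alox15, a lipoxygenase, had 229.6 and 5.26 CPM (43.7-fold, 37.4 to 51.3), Pcdh8, a protocadherin of paraxial mesoderm, 41.7 and 0.516 CPM and the neurofilament gene Nefm 58.7 and 1.06 CPM. Trim67 (40.04 to 0.871 CPM), the iodide transporter Slc5a5 (23 to 0.387 CPM) and the ecto-nucleotidase Nt5e (340 counts to 2) completed them.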

How the data were processed

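RNA-seq of poly-A RNA was analysed in 2 libraries of R1 mesoderm progenitors, with the other 6 libraries used for scaling and as context. The authors prepared strand-specific libraries and sequenced read pairs. According to the submitters' processing notes, bcl2fastq 2.17, cutadapt and STAR 2.4.2a with the NCBIM37 genome were used. The deposited files hold, for every gene, STAR's unnormalized count of read pairs without regard to strand and on either strand. Column 4 (reverse strand) was used as the library kit requires, and multimapping pairs are not in it. The annotation release is not given in the sources used here. Of 37620 gene IDs, 37205 were named from the GENCODE annotation of NCBIM37 and 415 were not in it. Sox1, Rhox5 and Kcnq1ot1 found no match, and 4 listed genes matched by an older symbol.

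Groups and days came from the labels. TMM factors were computed over the 8 libraries in edgeR 4.0.16 (R 4.3.3), and CPM and log2 ratios with a prior count of 0.5 in Python 3.11.15. No test was made, since each side is 1 library, and edgeR and DESeq2 1.42.0 served only for scaling factors. Genes with a mean of at least 1 CPM over the 2 libraries were counted. Counting intervals are exact binomial, and the ratios were tested on simulated data. PCR reads carry no molecular identifiers, so intervals and floors cover counting error only.

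The comparison and the 30 gene lists (605 genes) were chosen with earlier results of these data known. Beside T, Mesp1, Pou5f1, Porcn, Wls, Axin2, Wnt3, Wnt3a and Nodal, up to 4 members per list and direction with the largest ratios past 2-fold and at least 5 CPM were eligible to be named, with members within 2-fold as contrasts, and 15 protein-coding genes per direction with at least 10 CPM. Further members named for their known role were chosen after their values were seen. Alternatives were other scaling, no filter or a mean of 5 CPM, a prior count of 2, unstranded counts and a call by the nearer interval bound. Values of 4 list members are not reported here.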

Additional observations from a re-analysis of the deposited data

How the results depend on the processing

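The counts of genes 2-fold apart depended most on the filter for low counts. With no filter 3498 genes were at least 2-fold higher and 4113 lower on day 4, against 1175 and 1138, and with a mean of 5 CPM they were 736 and 591. These settings change the number of genes counted, to 21277 with no filter. Under the other 6 settings the counts lay between 843 and 1185 higher and between 835 and 1184 lower, the lowest when the nearer bound of the counting interval had to reach 2-fold. Of 480 counts of list members, 40 moved by over 1.5 times, 29 of them with a changed filter. With a mean of 5 CPM the endothelial and blood factors that were higher went from 16 to 8 and the retinoic acid genes from 4 to 2, and with no filter the Hox genes of groups 1 to 4 went from 4 to 8. For the 148 genes eligible by the naming rule, no log2 ratio changed sign, and other scalings moved none by more than 0.03. With unstranded counts Gbx2, Gpr124, Hoxb3, Tagln and Wnt2b moved beyond their counting interval, Hoxb3 to 5.35 and Tagln to -5.39, and the cause was not tested. A prior count of 2 moved log2 ratios by up to 1.99. Leaving out a library was not possible with 1 library a day. No paired analysis was possible because each day has 1 library and the labels give no replicate numbers. Age, the Wnt secretion inhibitor and any difference between the dishes cannot be told apart, and culture-to-culture spread is unknown.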

Other observations

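Genes were also ranked by the change in CPM, a share of all counts that is not corrected for gene length. The day 4 library gained most in Igf2, by 3642 CPM. Peg10 followed, from 2384 to 4338 CPM, and then Eef1a1, a translation factor, and Rbbp7, a histone-binding subunit of several chromatin complexes, at 1918 and 3053 CPM. Rbbp7 had between 328 and 516 CPM in the 5 R1 mESC libraries, so both mesoderm libraries lay above that range. Hmga2, a chromatin protein of embryonic and mesenchymal cells that let-7 represses, had 269 and 1057 CPM. Nrp1, a co-receptor for VEGF and semaphorins, had 25.4 and 574.9 CPM, and Gpc3, a glypican of growth control, 171 and 709 CPM. Lars2 (803 to 1802 CPM), Pkm2 (2115 to 2910 CPM) and the miRNA entry mmu-mir-689-2 (669 to 1317 CPM) were also among the 10 largest gains. That miRNA entry is only 57 bases long, and whether its counts come from a miRNA was not tested. Among the genes that lost most were Ptma (5033 to 3909 CPM), Ncl (3809 to 2728 CPM) and Npm1 (4359 to 3839 CPM), which are abundant in growing cells, and each stayed within 2-fold. Fn1, Pou5f1, T and Cdh1 were the members of the gene lists among the 10 largest losses.

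Several regulators had a mean under the 1 CPM minimum but more counts on day 4. Hoxb5 had 0 counts on day 3 and 45 on day 4, Hoxd1 2 and 57, the Notch ligand Dll4 of arteries 0 and 30 and the erythroid factor Gata1 1 and 23. With no filter, 12 of the 27 Hox genes of groups 5 to 13 were at least 2-fold higher and 4 lower. Over all 21277 genes counted with no filter, 3498 were higher and 4113 lower. Many of these Hox genes had few reads, since 21 of the 27 on day 3 and 13 on day 4 had 3 counts or fewer. The endoderm genes Foxa2 (55 and 2 counts), Foxa1 (11 and 0) and Ttr (40 and 5), picked after their values were seen, had fewer counts on day 4. Other endoderm markers did not. With no filter, 10 of 18 listed definitive and node endoderm markers were at least 2-fold lower and 2 higher. Of 18 listed visceral and extraembryonic endoderm markers, 9 were lower and 3 higher.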
